A study of Homo sapiens with 6 samples.

Results

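The 10 genes described here encode the kinase CDK1, its mitotic cyclins CCNA2, CCNB1 and CCNB2, and the kinases and phosphatases that govern their activity at entry into mitosis, namely CDC25B, CDC25C, WEE1, PLK1, AURKA and AURKB. They were taken by gene symbol, and all 10 were found among the 27942 genes of the deposited table. All 10 were among the 13727 genes with enough counts to be tested. HCT116 is an established human colorectal carcinoma cell line. Untreated cells (NT, 3 libraries) were compared with cells exposed to the platinum drug oxaliplatin at 0.5 µM for 24 h (OXA, 3 libraries), and poly(A) RNA of the whole culture was sequenced with paired reads. The comparison asks how the steady-state mRNA of these genes differed after 1 day of drug exposure. Neither the labels nor the methods say whether the numbered replicates were separate cultures, so p-values measure the spread between these libraries, which may be technical.

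Entry into mitosis is driven by CDK1 bound to cyclin B. WEE1 places an inhibitory phosphate on CDK1, the CDC25 phosphatases remove it, and PLK1 and the Aurora kinases promote that switch and then direct spindle assembly and chromosome segregation. Most of these mRNAs are made in G2 and M phase and are low in G1, under repression by the DREAM complex and activation by B-MYB and FOXM1, acting through CHR elements and through CCAAT boxes bound by NF-Y.

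The libraries held 32979521 to 40967880 counts. CDKN1A, which encodes the p53-induced CDK inhibitor p21 and served as a check of the treatment, was at 5143 ± 907 normalized counts in NT and 39110 ± 2895 in OXA (mean ± SD, n = 3, log2 fold change 2.93, SE 0.15, edgeR adjusted p = 0.000445). Of 6 epithelial markers, all were detected in every library. The keratins KRT8, KRT18 and KRT19 lay higher in every OXA library (KRT19 at 6427 to 15687 normalized counts in NT and 24380 to 35643 in OXA), CDH1 lay at 3747 to 4349 in NT and 3123 to 3879 in OXA, and the ranges of EPCAM and CLDN7 overlapped. The 5 fibroblast markers summed to 118 to 290 counts in NT and 195 to 282 in OXA, with DCN at 0 in every library, and the 5 blood and endothelial markers summed to 3 to 5 and 5 to 8. NT library 1 stood apart from the other NT libraries, with a chi-square per gene of 83.1 against NT library 2 and 75.7 against NT library 3, and its deviation followed GC content (given with the values below).

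Promoter sequence was at hand for 8 of the 10 genes, all but WEE1 and AURKA, in RefSeq windows on GRCh38.p14 that run from 250 bases before to 50 after a transcription start. The CHR was searched as TTTGAA or TTCGAA and the NF-Y box as CCAAT, each on both strands and with no overlap between them. A CHR match was found in 5 of the 8 windows, against 16.3% of 27305 gene promoters and 10.3% of the promoters of tested genes. CCAAT was found in all 8, against 35.7% and 36.6%. Both stood in the same window for 5 genes (62.5%), against 6.48% and 4.46%. Of the wider set of mitotic entry genes described further on, 18 of 41 windows held a CHR match (43.9%) and 22 held CCAAT (53.7%). These are matches of letters and not measured binding sites. The stretches from 120 bases before to 30 after the start are printed for the 7 genes whose window begins at the main annotated start, since they show how close the matches lie to it; capitals mark CHR and CCAAT matches on either strand. AURKB is not printed because the start of its window lies 326 bases away from that start. It is still counted among the 8, with 1 CCAAT match and 0 CHR matches near that other start.
CDC25C, chr5:138331775-138331924, minus strand: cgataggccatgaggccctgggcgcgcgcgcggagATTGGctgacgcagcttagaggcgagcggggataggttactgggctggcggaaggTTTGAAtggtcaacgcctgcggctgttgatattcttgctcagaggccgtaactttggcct
CDK1, chr10:60778358-60778507, plus strand: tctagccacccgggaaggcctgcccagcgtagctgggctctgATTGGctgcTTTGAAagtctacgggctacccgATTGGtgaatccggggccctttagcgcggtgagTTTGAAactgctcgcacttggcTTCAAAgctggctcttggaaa
CCNB2, chr15:59105026-59105175, plus strand: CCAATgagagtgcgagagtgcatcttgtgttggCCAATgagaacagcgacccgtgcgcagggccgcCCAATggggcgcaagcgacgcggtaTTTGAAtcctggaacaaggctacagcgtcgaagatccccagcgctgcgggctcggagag
PLK1, chr16:23678769-23678918, plus strand: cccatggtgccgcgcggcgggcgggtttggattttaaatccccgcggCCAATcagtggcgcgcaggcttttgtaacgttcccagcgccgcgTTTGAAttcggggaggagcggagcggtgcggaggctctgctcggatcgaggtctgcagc
CDC25B, chr20:3796190-3796339, plus strand: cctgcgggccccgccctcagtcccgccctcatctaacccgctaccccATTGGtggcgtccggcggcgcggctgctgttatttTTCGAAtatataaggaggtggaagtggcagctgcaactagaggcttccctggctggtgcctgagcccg
CCNA2, chr4:121823854-121824003, minus strand: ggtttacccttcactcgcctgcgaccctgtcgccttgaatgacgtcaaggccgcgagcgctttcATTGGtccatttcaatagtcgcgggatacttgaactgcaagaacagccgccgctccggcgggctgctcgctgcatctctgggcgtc
CCNB1, chr5:69167030-69167179, plus strand: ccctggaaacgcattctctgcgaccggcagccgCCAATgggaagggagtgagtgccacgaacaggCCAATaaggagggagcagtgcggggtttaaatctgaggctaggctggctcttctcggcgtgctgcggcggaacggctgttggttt
CDC25C, CCNB2 and PLK1 had a single CHR match of the form TTTGAA at almost the same place, beginning 30, 29 and 29 bases before the start. CDK1 had 3 such matches, and CDC25B had the TTCGAA form. CCNA2 and CCNB1 had CCAAT matches without either of the searched CHR forms in these windows. Only TTTGAA and TTCGAA were searched, so a CHR of any other form would not be counted here.

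**Figure D1:**
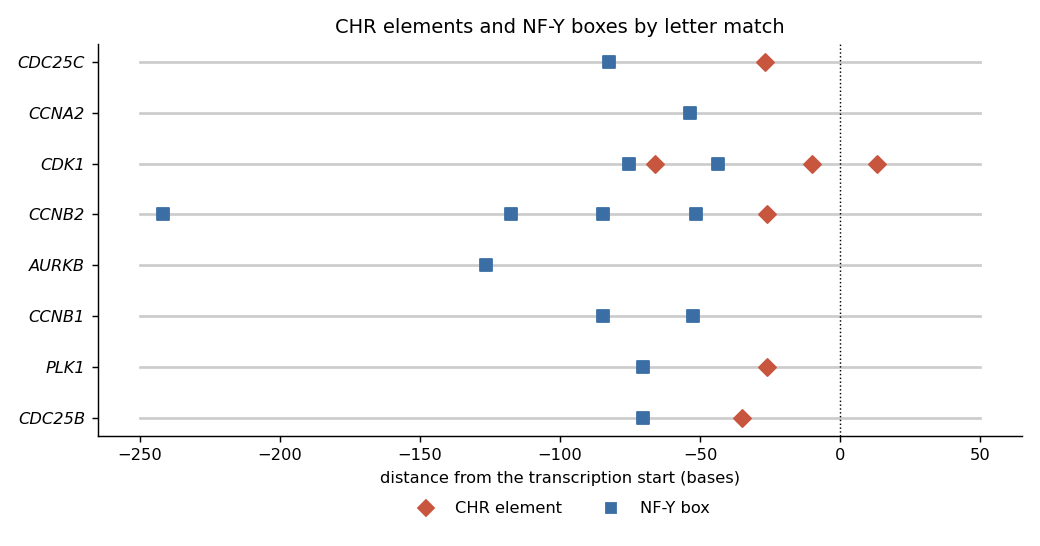
Positions of CHR elements (diamonds) and NF-Y boxes (squares) found by letter match in the promoter windows of 8 genes, in bases from the transcription start (dotted line). For AURKB this start lies 326 bases from the main annotated one. The genes are ordered from the lowest log2 fold change (top) to the highest, and 5 of the 8 windows hold a CHR match.

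Of the 10 genes, 2 were lower in OXA than in NT, WEE1 and CDC25C, and none was higher. They form an opposing pair, the kinase that restrains CDK1 and a phosphatase that releases it. WEE1 mRNA fell by 46.3% and CDC25C mRNA by 31.6%, whereas the log2 fold changes of PLK1 and CDC25B lay within 1 SE of 0. CDK1, CCNA2 and CCNB2 were lower in every OXA library than in any NT library, by 22.1%, 22.4% and 15.3%, without passing the adjusted threshold of 0.05. Every OXA library lay below every NT library for 5 of the 10 genes, against 14.4% of all genes. For 0 of the 10 did every OXA library lie above, against 14.5%. Of all 13727 genes tested, 2.29% were called lower and 2.78% higher at the adjusted threshold. At an unadjusted p under 0.05, 5 of the 10 were lower and 0 higher, against 11.1% and 10.7% of all genes. DESeq2 called 2 lower and 0 higher (4.23% and 4.48% of all genes), and limma-voom 2 lower and 0 higher (2.11% and 2.73%). The median log2 fold change of the 10 genes was -0.22, against 0.023 over all genes tested. In RNA from a whole culture, fewer cells in G2 and M phase and less of an mRNA in each cell cannot be told apart.

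An NT and an OXA library of the same number shared part of their deviation. In a fit that takes this number as a block, 5 of the 10 genes were lower, CCNA2, CDK1 and CCNB2 being added, and 0 were higher. In it 10.9% of all genes were lower and 12.1% higher. When the trends of each library with transcript GC content and length were removed as well, an alternative chosen after the data had been seen, all 10 were lower, against 22% of all genes lower and 23.6% higher. With these trends removed but no block, 6 were lower, against 11.1% of all genes. The number called lower was thus 2, 5, 6 or 10 in these 4 fits. It was 1 with the authors' factors (1.46% of all genes) and 0 to 2 with a library left out (0.136% to 4.11% of all genes). WEE1 and CDC25C passed in each of the 4 fits named first.

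**Figure D2:**
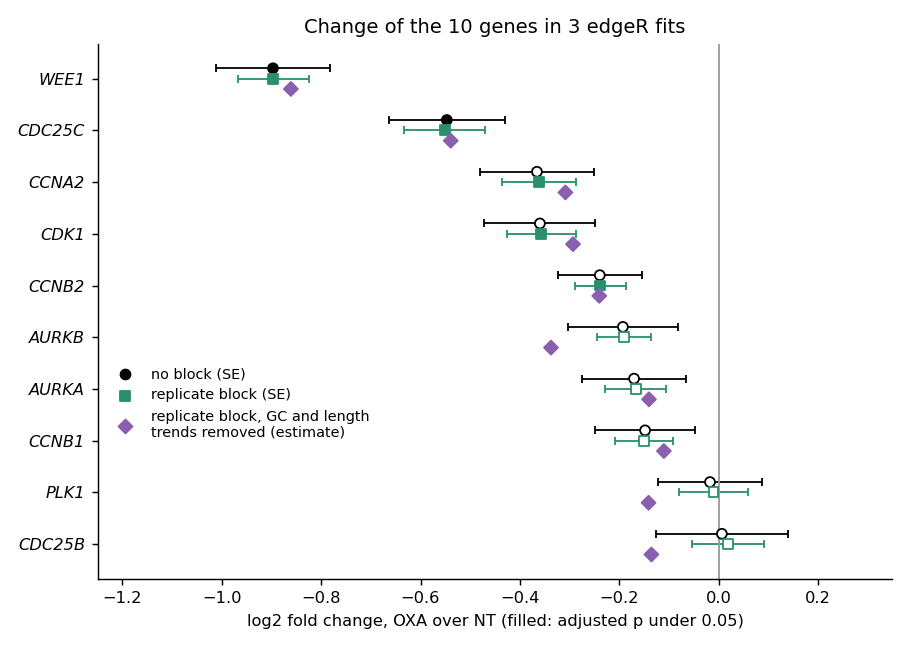
Log2 fold change of each gene, OXA over NT, in the edgeR fit without a block, with the replicate block (bars, SE) and with the block and GC and length trends removed (estimate). Filled points have an adjusted p under 0.05, which holds for 2, 5 and 10 genes respectively.

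CDK1 (ENSG00000170312, chromosome 10, 60778331 to 60794852 on GRCh38) encodes the kinase at the centre of the set, and its promoter is the one printed above with 3 CHR matches. Its normalized counts were 8107, 6472 and 7448 in NT libraries 1 to 3 and 5591, 5325 and 6250 in OXA libraries 1 to 3. Every OXA library lay below every NT library. The means were 7343 ± 823 and 5722 ± 476 (SD, n = 3), a log2 fold change of -0.36 (SE 0.11, edgeR adjusted p = 0.112, and 0.0204 with the replicate block).

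Among the cyclins, CCNA2 had the largest difference and CCNB1 the smallest. CCNA2 (ENSG00000145386, chromosome 4, 121816444 to 121823883), the cyclin of S phase and early mitosis, was at 6186, 5004 and 5055 in NT and 4319, 3825 and 4462 in OXA. The groups did not overlap, and the log2 fold change was -0.37 (SE 0.11, adjusted p = 0.113, and 0.0230 with the block). CCNB2 (ENSG00000157456, chromosome 15, 59105126 to 59125045), the smaller partner of the cyclin B pair in mRNA level, was at 4004, 3564 and 3692 in NT and 3238, 3057 and 3244 in OXA. It too lay below the NT range in all 3 OXA libraries, with a log2 fold change of -0.24 (SE 0.084, adjusted p = 0.152, and 0.0268 with the block). CCNB1 (ENSG00000134057, chromosome 5, 69167135 to 69178245), the main mitotic cyclin, was at 11806, 10233 and 11201 in NT and 9903, 9136 and 10960 in OXA. The CCNB1 ranges overlapped through OXA library 3, and the log2 fold change of -0.15 (SE 0.10) had an adjusted p of 0.455, or 0.119 with the block.

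The CDC25 phosphatases, which activate cyclin-bound CDK1, differed from each other. CDC25C (ENSG00000158402, chromosome 5, 138285269 to 138338355) was the least abundant of the 10 genes, at 1033, 960 and 987 normalized counts in NT and 721, 592 and 727 in OXA. The OXA libraries all lay below the NT libraries, with means of 994 ± 37.0 and 680 ± 76.2 and a log2 fold change of -0.55 (SE 0.12, adjusted p = 0.0428, and 0.00978 with the block). This call was close to the threshold. Without a block it was kept only when NT library 1 was left out (adjusted p = 0.0309), and leaving out any other single library gave an adjusted p between 0.0725 and 0.158. It also did not pass with the authors' normalization factors (adjusted p = 0.106). Calls over all genes moved in the same way, from 2.29% lower with all 6 libraries to between 0.136% (without OXA library 1) and 4.11% (without NT library 1). CDC25B (ENSG00000101224, chromosome 20, 3786772 to 3806121) was at 5290, 7241 and 7167 in NT and 6134, 6876 and 6780 in OXA. The OXA values lay inside the NT range, whose low end was NT library 1, and the log2 fold change was 0.0066 (SE 0.13, adjusted p = 0.985).

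WEE1 (ENSG00000166483, chromosome 11, 9573670 to 9593457), the inhibitory kinase, had the largest decrease of the 10. It was at 3364, 2764 and 3185 normalized counts in NT and 1609, 1536 and 1855 in OXA. Between same-numbered libraries the log2 difference was -1.06, -0.85 and -0.78. Every OXA library lay below every NT library, so any pairing of the libraries would show a decrease. The means were 3105 ± 308 and 1667 ± 167, a log2 fold change of -0.90 (SE 0.12, adjusted p = 0.00845, and 0.00218 with the block). The call held without any 1 of the NT libraries and without OXA library 3, and missed the threshold without OXA library 1 (adjusted p = 0.0628) or OXA library 2 (0.0502).

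PLK1, which activates CDC25C and restrains WEE1, differed between the groups by less than its SE. PLK1 (ENSG00000166851, chromosome 16, 23677656 to 23690367) was at 5016, 6442 and 5612 in NT and 5503, 5731 and 5633 in OXA, a log2 fold change of -0.017 (SE 0.11, adjusted p = 0.947). NT library 1 was the lowest of the 6 on this scale. In the authors' normalized signal it was the highest of the NT libraries, at 7442 against 5889 and 5282, because the deposited factor for PLK1 in that library was 1.52. Of the Aurora kinases, AURKA (ENSG00000087586, chromosome 20, 56369389 to 56392337), which matures the centrosomes and activates PLK1, was at 4671, 3964 and 3875 in NT and 3895, 3431 and 3790 in OXA. Its log2 fold change was -0.17 (SE 0.10, adjusted p = 0.397, and 0.106 with the block), and OXA library 1 reached into the NT range. AURKB (ENSG00000178999, chromosome 17, 8204733 to 8210600), the kinase of the chromosomal passenger complex, was at 2579, 3196 and 2748 in NT and 2386, 2707 and 2365 in OXA. The ranges overlapped again, with a log2 fold change of -0.19 (SE 0.11, adjusted p = 0.368, and 0.0551 with the block).

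**Figure D3:**
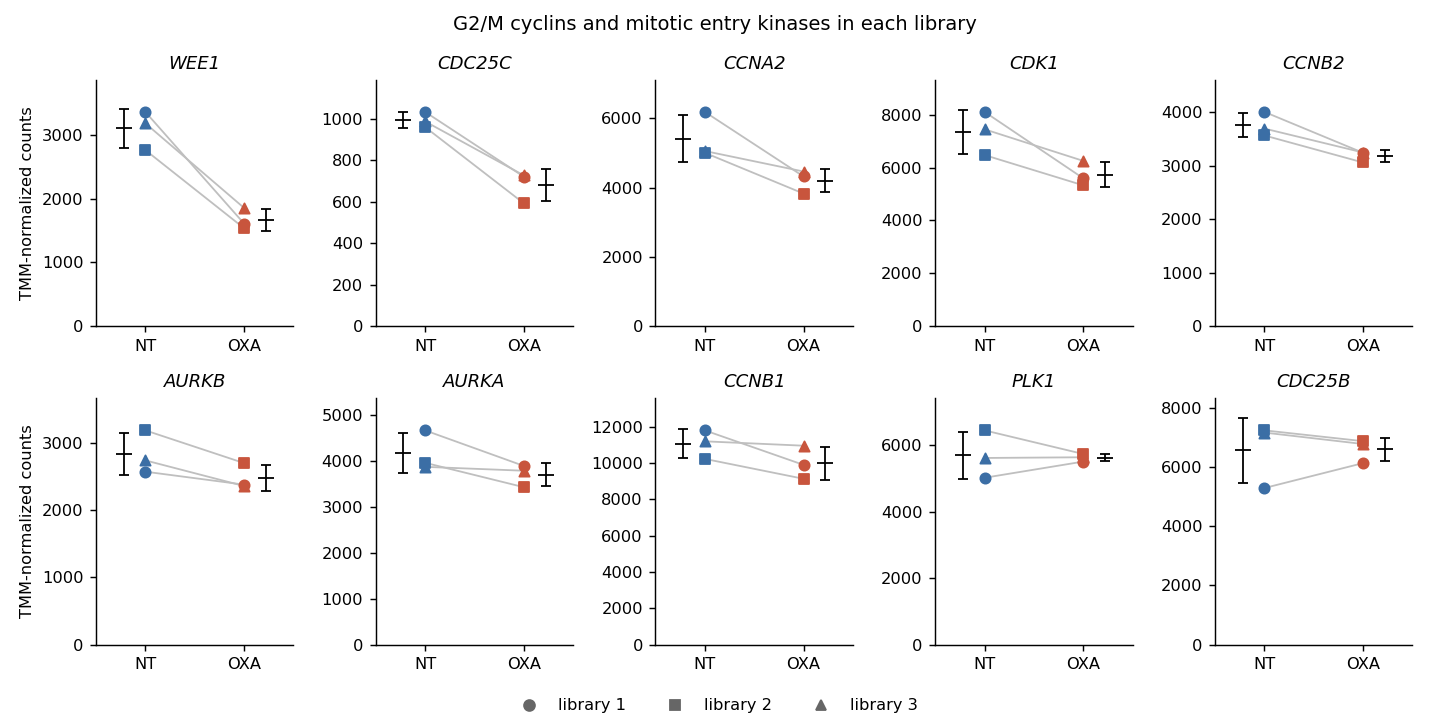
Normalized counts of the 10 genes in each of the 3 NT and 3 OXA libraries, with marker shapes for the library number, lines joining same-numbered libraries, and bars for mean ± SD (n = 3). The OXA points lie below all NT points for WEE1, CDC25C, CDK1, CCNA2 and CCNB2, and the groups overlap for the other 5 genes.

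The groups did not overlap for 5 of the 10 genes, all lower in OXA, against 14.4% of all genes tested with every OXA library below every NT library and 14.5% with every one above. Some counts carry a further uncertainty. CCNA2 shares its locus with EXOSC9, CDC25C with FAM53C and PLK1 with ERN2, among others, each on the opposite strand, and the strand setting of the counting is not given in the sources used here. On the same strand, WEE1 overlaps the annotated gene ENSG00000238387 and CCNB2 overlaps ENSG00000259732. Neither of these has an entry of its own. Pseudogenes of CCNB2, WEE1, AURKA and AURKB are annotated but have no entry of their own in the table, so how their reads were assigned is unknown.

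NT library 1 differed from NT libraries 2 and 3 in a way that followed base composition, and the 10 genes span it, from CDK1 with a transcript GC content of 35.4% to CDC25B with 59.1%. Relative to the mean of NT libraries 2 and 3, NT library 1 was higher by 0.30 (log2) for CCNA2, 0.25 for AURKA and 0.22 for CDK1. It was lower for the 3 genes of highest GC content, at -0.20 for AURKB, -0.26 for PLK1 and -0.45 for CDC25B. Across the 10 genes Pearson's r between GC content and this deviation was -0.91 and Spearman's rho was -0.83, and across all 13727 genes rho was -0.77. These are correlations across genes, which share the same 3 libraries and are not independent replicates. With GC and length trends removed and the replicate block, PLK1 and CDC25B had log2 fold changes of -0.14 each (adjusted p = 0.0300 and 0.0138), AURKB -0.34 (0.000267), AURKA -0.14 (0.0171) and CCNB1 -0.11 (0.0241). WEE1 stayed at -0.86 and CDC25C at -0.54 in the same fit.

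**Figure D4:**
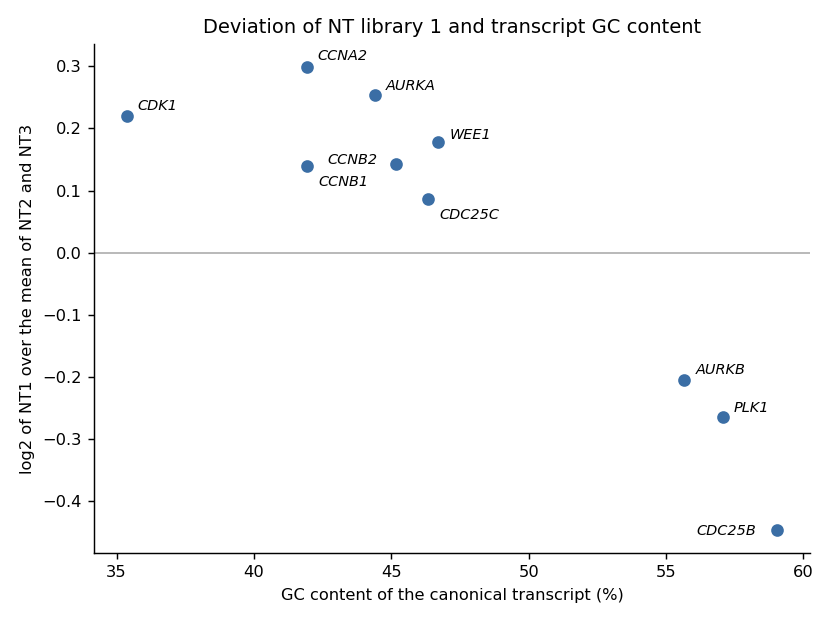
Deviation of NT library 1 from the mean of NT libraries 2 and 3 (log2) against the GC content of the transcript (percent) for the 10 genes. The points run from 0.30 for CCNA2 down to -0.45 for CDC25B, the gene of highest GC content.

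Ratios of related or opposing enzymes within a library need no library factor, and 5 were compared by a two-sided exact permutation test, in which 3 libraries against 3 cannot give a p below 0.1. Of the 5, the WEE1 to CDK1 ratio had the smallest spread within groups. Its log2 value was -1.27, -1.23 and -1.23 in NT and -1.80, -1.79 and -1.75 in OXA, a difference of -0.54 between WEE1 and its substrate CDK1 (exact p = 0.1, adjusted over the 5 ratios 0.167). The SD of this ratio was 0.025 in each group. The 2 transcripts differ in GC content, at 46.7% for WEE1 and 35.4% for CDK1. With GC and length trends removed and the block, their log2 fold changes were -0.86 and -0.29. The ratio of CDC25B to CDC25C differed by 0.57, from 2.71 ± 0.31 to 3.28 ± 0.23, with no overlap between the groups (exact p = 0.1, adjusted 0.167). A library's trend with GC content does not cancel between genes of unlike GC content, here 59.1% and 46.3%. NT library 1 was at 2.36, against 2.91 and 2.86 in NT libraries 2 and 3. With trends removed and the block, the log2 fold changes were -0.14 for CDC25B and -0.54 for CDC25C. The ratio of WEE1 to CDC25C differed by -0.34, from 1.64 ± 0.099 to 1.29 ± 0.12, also without overlap (exact p = 0.1, adjusted 0.167). For CCNB1 to CCNB2 the difference was 0.088 (exact p = 0.2) and for AURKA to AURKB 0.022 (exact p = 0.9), and in both of these the groups overlapped.

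Per kilobase of the main annotated transcript, CCNB1 had the highest level of the 10 in NT, 5461 normalized counts per kb, followed by CDK1 at 3887. PLK1 (2634), CCNB2 (2522), AURKB (2286), CDC25B (2105), AURKA (2051) and CCNA2 (1970) followed, and each of these overlapped its neighbour in the order. WEE1 (865) and CDC25C (475) were lowest, and CCNB1, CDK1, WEE1 and CDC25C each stood clear of their neighbours over the 3 NT libraries. In OXA the order was the same except that CDC25B (2115) and AURKB (2000) changed places, and those 2 overlapped. WEE1 was at 465 and CDC25C at 325 in OXA. The order depends on the length used. With the length of all annotated exons in place of the main transcript, 9 of the 10 NT levels were different. CCNA2 (1970) then stood above CDK1 (1878), PLK1 (1195) came after AURKB (1268), and WEE1 (336) came close to CDC25C (299).

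Across the 6 libraries the genes with the lowest fold changes also varied together. The correlation of a gene with the mean of the other 9 was 0.97 for WEE1 and CDC25C, 0.89 for CCNB2, and 0.85 for CDK1 and CCNA2. It was 0.67 for CCNB1, 0.62 for AURKA and 0.41 for AURKB, and -0.13 for PLK1 and -0.23 for CDC25B. Over the 45 pairs of genes r ran from -0.75 to 0.98 with a median of 0.69. These values describe 6 libraries in 2 groups and so hold the difference between the groups as well as the trend of NT library 1 with GC content. The 5 genes outside the lists whose profile was most like the mean profile of the 10 (r from 0.993 to 0.996 over 6 libraries) were ORC6 of the origin recognition complex, the asparagine synthetase gene ASNS, FAM27E3, the spindle and kinetochore gene SKA1, and RIMKLA. They were picked for this profile, so their lower values in OXA, with log2 fold changes of -0.56, -0.95, -1.01, -0.75 and -0.42 in that order, are a description and no test is given.

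A wider list of 50 genes of mitotic entry was described in the same fit, of which 49 were tested and CCNA1 was at 0. Of the 49, 5 were lower in OXA and 4 higher, against the 2.29% and 2.78% of all genes, and their median log2 fold change was -0.18. With the replicate block 17 were lower and 6 higher, against 10.9% and 12.1% of all genes. The lower count was 13 without NT library 1, 3 without NT library 2, 1 without NT library 3 or OXA library 3, and 0 without OXA library 1 or OXA library 2. Over all genes the share called lower was 4.11%, 1.05%, 0.498%, 0.483%, 0.136% and 0.231% without NT libraries 1, 2 and 3 and OXA libraries 1, 2 and 3. The log2 fold changes of the 5 genes called lower stayed between -0.88 and -0.47 in these fits. The higher count was 2 without NT library 3, where 0.829% of all genes were higher. The 14 genes added by the block are given with their roles; apart from HMMR they were named after their values had been seen.

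Among 8 tested relatives of the 10 genes, CDC25A, a phosphatase that also acts at the G1/S transition, was lower (-0.69, adjusted p = 0.0259), while the stress-responsive polo-like kinases PLK2 (1.20, 0.00247) and PLK3 (1.56, 0.00876) were higher. PLK3 was at 374, 640 and 533 normalized counts in NT and 1370, 1752 and 1438 in OXA, so the OXA libraries all lay above the NT libraries. PLK2 passed whichever library was left out, PLK3 with each left out except NT library 3 (adjusted p = 0.0509), and CDC25A only without NT library 1 or NT library 2. The block added the S phase kinase CDK2 (-0.39, adjusted p = 0.0605, and 0.00907 with the block) and PLK4, the kinase of centriole duplication (-0.49, 0.0628 and 0.00982), both lower. Of these 8 genes 1 was thus lower and 2 higher without the block, against 2.29% and 2.78% of all genes. With the block 3 were lower and 2 higher, against 10.9% and 12.1%.

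In the Greatwall branch, which holds back the phosphatase that opposes CDK1, the kinase MASTL was lower (-0.70, 0.0231). Its substrate ENSA was higher with the block (0.25, adjusted p = 0.141, and 0.0252 with the block), and the other 3 genes passed in neither fit. Of the 6 genes of the cyclin destruction machinery, FBXO5, an inhibitor of the anaphase-promoting complex, was lower (-0.67, 0.0488), and the F-box cyclin CCNF was lower with the block (-0.27, 0.245 and 0.0328). Without the block 1 of the 5 Greatwall genes and 1 of these 6 were lower, against 2.29% of all genes. With the block 1 and 2 were lower, against 10.9%, and 1 and 0 higher, against 12.1%. MASTL and FBXO5 passed only without NT library 1 when single libraries were left out. FBXO5 also missed the threshold with limma-voom (adjusted p = 0.0524) and with the authors' factors (0.0569).

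Among 6 checkpoint kinases and p53-linked restraints, CHEK1, the kinase that restrains CDC25 phosphatases after DNA damage, was lower (-0.59, 0.0358). CDKN1A (given above) and the p53 target GADD45A, whose product binds CDK1 (0.83, 0.00908), were higher. These calls, 1 lower and 2 higher of 6, stand against 2.29% and 2.78% of all genes. With the block 1 was lower and 3 higher, against 10.9% and 12.1%. SFN, the p53-induced 14-3-3 protein that keeps CDK1 and cyclin B in the cytoplasm, was at 1087, 3140 and 2794 normalized counts in NT and 5335, 8099 and 6226 in OXA. Every OXA library lay above the NT range, and the log2 fold change of 1.49 (SE 0.36) had an adjusted p of 0.0605, or 0.00767 with the block and 0.0234 with DESeq2. Without NT library 1, its lowest, SFN had 1.14 (edgeR adjusted p = 0.00427). The call of GADD45A was lost without NT library 3, OXA library 1 or OXA library 2 (highest adjusted p = 0.0669). That of CHEK1 was lost without any 1 of NT library 3 and the 3 OXA libraries (highest 0.151) and with the authors' factors (0.0861).

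Among the transcriptional regulators of G2/M genes, 1 of 11 was lower, the pocket protein gene RBL1 (-0.79, 0.0112), against 2.29% of all genes. With the block 5 were lower, against 10.9%, and DESeq2 called 3, against 4.23%. The block added FOXM1, the G2/M activator (-0.31, adjusted p = 0.0788, and 0.0215 with the block), and 3 subunits of the MuvB core that DREAM and B-MYB share. These were LIN52 (-0.50, 0.0703 and 0.0155), LIN54, which binds the CHR (-0.46, 0.0516 and 0.0140), and RBBP4 (-0.36, 0.0795 and 0.0123). The call of RBL1 was lost without OXA library 1 or OXA library 2 (highest adjusted p = 0.0723).

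In 3 roles no gene passed the test without the block. Of the CDK-activating kinase and CDK-binding subunits, 0 of 5 had an unadjusted p under 0.05, a DESeq2 call or a blocked call, and the largest difference was that of CDK7 at 0.23 (edgeR adjusted p = 0.249). Of the activators of the mitotic kinases, 2 of 5 had an unadjusted p under 0.05 and were lower (11.1% of all genes), DESeq2 called 1 (4.23%) and the block 3 (10.9%). These 3 were HMMR (-0.47, adjusted p = 0.0759, and 0.0200 with the block), NEK9 (-0.33, 0.117 and 0.00979) and TPX2, the activator of AURKA (-0.28, 0.243 and 0.0255). Of the partners of AURKB in the chromosomal passenger complex, 2 of 3 had an unadjusted p under 0.05 and were lower, DESeq2 called 1 and the block 2, beside the same shares of all genes. The block called BIRC5 (-0.36, 0.0784 and 0.00793) and CDCA8 (-0.31, 0.0648 and 0.0143). INCENP had the largest difference of these 3 genes, -0.40 (adjusted p = 0.276), but it depended on single NT libraries. It was -0.59 without NT library 1 (0.0137) and -0.25 without NT library 2 (0.454). INCENP passed with the authors' factors (-0.51, 0.0387) and with GC and length trends removed (-0.50, 0.00141, and 5.62e-05 with the block as well). In those trend fits 11.1% and 22% of all genes were lower. limma-voom called 0 in each of these 3 roles.

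**Figure D5:**
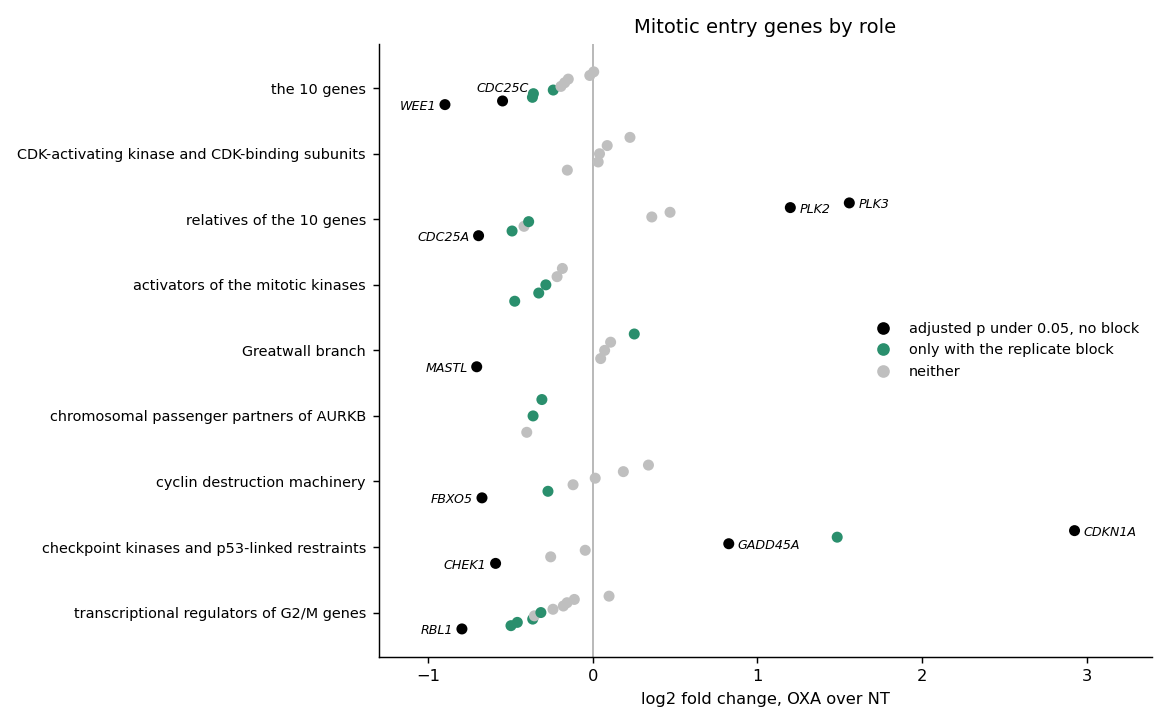
Log2 fold change, OXA over NT, of the 10 genes (top line) and of 49 other mitotic entry genes grouped by role, each point a gene. Black points have an adjusted p under 0.05 without a block (named), green points with the replicate block but not without it, and CDKN1A lies farthest to the right at 2.93.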

How the data were processed

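Reads of 3 NT and 3 OXA libraries were mapped by the authors to GRCh38 with STAR, and the submitters' processing notes also name Trimmomatic 0.32, STAR 2.7.5b, RSEM 1.3.3 and DESeq2 2.13. The program and strand setting used for counting are not given in the sources used here. The authors deposited a raw count (whole numbers) and a normalized signal per gene and library, the latter being the raw count times a factor that differs between genes as well as libraries, and it entered an alternative only. No per-sample column was left unused. Groups and replicate numbers came from the sample labels.

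Counts were filtered with filterByExpr (minimum count 10, total 15), which left 13727 of 27942 genes, normalized by TMM, and tested with the edgeR quasi-likelihood test (edgeR 4.0.16, limma 3.58.1, R 4.3.3), and p-values were adjusted by Benjamini-Hochberg over every tested gene. All adjusted p-values in the text are edgeR's unless another tool is named. A gene was called at an adjusted p under 0.05. Normalized counts are TMM-scaled to the mean library size. Each SE is the log2 fold change over the square root of its F statistic. Positions, lengths and GC content came from GENCODE 44 on GRCh38 (known for 99.6% of tested genes). Deviations of same-numbered NT and OXA libraries from their group means correlated at 0.48, 0.47 and 0.26 across genes, against -0.41 to 0.078 for different numbers. Deviations cancel out within a group, so the same-number and different-number values are not independent. The labels do not say what the numbers stand for. From these correlations in the same data they were taken to pair the libraries, and a blocked value stands beside each call that it alters. GC and length trends were fitted per library and entered as offsets, which can also take out a difference between the groups that follows GC content or length. Ratios used a prior count of 0.5.

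Alternatives were TMM against DESeq2 size factors and the authors' factors, other filters, DESeq2 1.42.0, limma-voom, the block, the trend corrections and leaving out each library. The edgeR fit without a block was tested on simulated counts, which held neither a pairing of libraries nor a trend with GC content. Named were all 10 genes, list genes past the threshold or, in a role with none, the gene with the largest absolute change, the 5 genes most alike in profile, and CDKN1A. The members and lists were chosen with earlier results of these data known.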

Additional observations from a re-analysis of the deposited data

How the results depend on the processing

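Of 150 recomputed values of the 10 genes, 119 kept their direction and side of the threshold, 8 lost a call, 14 gained one and 9 changed sign. The number of the 10 called lower was 1 with the authors' factors (1.46% of all genes) and 5 with the replicate block (10.9%). It was 6 with GC and length trends removed (11.1%), 10 with both (22%), and 0 to 2 with a library left out (0.136% to 4.11%). The number of list genes called lower was 10 with a filter of 1 CPM, 11 with DESeq2, 17 with the block, 21 with trends removed and 26 with both, while the share of all genes rose from 2.29% to 3.86%, 4.23%, 10.9%, 11.1% and 22%. It was 0 to 13 with a library left out (0.136% to 4.11% of all genes). The number called higher was 7 with trends removed (12% of all genes), 12 with both (23.6%), and 2 to 5 with a library left out (0.474% to 4.49%). The replicate block changed no other call of the 10 genes or the list than those given with their values. Signs changed only for genes near 0. CDC25B was at -0.019 with no filter, -0.020 at 1 CPM, -0.00019 with the authors' factors, -0.14 with trends removed, with or without the block, and -0.13 to 0.057 with a library left out. PLK1 was at 0.051 without NT library 2, and the AURKA to AURKB difference ran from -0.10 to 0.17 with a library left out. The cause was not tested. The median of the 10 genes ran from -0.28 to -0.21. The trend corrections were chosen after the data had been seen. In promoter windows with 100 bases before the start, 5 of 8 genes held a CHR match (7.37% of all promoters) and 7 CCAAT (22.1%). With TTTGAA as the only CHR form, 4 held a match in either window. The share of all promoters was 15.2% with 250 bases before the start and 6.86% with 100. With 3 libraries a group the SE of the 10 genes was 0.084 to 0.13, which limits what could be called.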
